A study of Gossypium with 24 samples.

Results

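Roots of drained cotton seedlings of variety 4847 were compared between 24 h of light after a long dark period and the end of that dark period. The comparison rests on 6 of the 24 libraries of the series, 3 for each time, taken by their labels. It was chosen with earlier results of these data known. Control 4847 roots at 24 h came from seedlings at the 4-leaf stage that were kept 96 h in darkness and then 24 h in the light. Control 4847 roots at 0 h came from seedlings taken at the end of the 96 h in darkness. None of these plants was waterlogged, and both groups went through the dark period, so that no group shows roots before darkness. Variety 4847 is described by the submitters as sensitive to flooding. The labels name the treatment of both times as a dark recovery phase, while the study's design text says that the 24 h plants were lit again. The series has no drained roots held another 24 h in the dark, so light and elapsed time cannot be told apart. Whether the libraries of a group stem from different plants is not labelled, and p-values then describe the spread between libraries alone, part or all of which may be technical. Set beside them are the same times in control roots of variety 9001, described as tolerant, and in 4847 roots that were waterlogged during the dark period and drained at 0 h, again with 3 libraries each.

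Roots do not photosynthesize and live on sucrose sent down by the leaves. In plants held in prolonged darkness that supply runs down, and carbon-starved tissue is known to lower growth and biosynthesis and to break down reserves, proteins and lipids. Return to light restores the supply and also acts through photoreceptors and the circadian clock, part of which is in the root itself. Tetraploid cottons carry A and D chromosomes, named after the diploid ancestors they derive from, and with them paired copies of many genes. The files give gene IDs with A or D chromosome labels and no gene names or functions, so the roles of the genes that changed, and the markers that would check the tissue, were not analysed here.

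The 6 libraries held 38194816 to 39455583 counts. Within a group their log2 CPM (counts scaled to a common library size with the TMM factors of edgeR) correlated at 0.988 to 0.99, and between 24 h and 0 h at 0.805 to 0.809, over 50638 genes with enough counts to be tested. No library stood apart from its group. Variation between replicate libraries, as a coefficient of variation beyond counting noise, was 5.82% at 24 h and 6.07% at 0 h.

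Between the dark and the lit roots 46.4% of the tested genes differed at least 2-fold, and the large changes were mostly rises. At least 2-fold higher at 24 h were 14286 genes, 28.2% of those tested, and at least 2-fold lower were 9201 genes, 18.2% (edgeR quasi-likelihood test, Benjamini-Hochberg adjusted p under 0.05). In a bulk sample, fewer cells of a type and less RNA per cell cannot be told apart. Between 2- and 4-fold the fallers were the more numerous, at 6032 against 5209 risers. In the next classes the order turned: 3098 genes rose and 1791 fell by 4- to 8-fold, and 3220 rose and 1022 fell by 8- to 32-fold. At 32-fold and above, 2759 genes rose and 356 fell, a ratio of 7.75, against 12.8 with library totals and 2.22 (102 and 46 genes) with limma on log2(FPKM + 1). On that last scale, where the added 1 shrinks the changes of weak genes, the ratio did not grow with fold, at 3.11 from 2-fold and 2.87 from 4-fold. A test against a 2-fold change itself, in place of a 2-fold limit on the fitted value, called 11564 genes higher, 22.8%, and 7164 lower, 14.1%. The balance below 4-fold hangs on the scaling. The median change of all tested genes was 0.09 on the log2 scale with TMM and 0.58 with library totals as the only scaling, and totals gave 19086 risers and 5214 fallers past 2-fold. At 4-fold and above the risers outnumbered the fallers under each of the 7 other settings tried, by ratios from 2.87 with limma on log2(FPKM + 1) to 5.56 with library totals. Without the 2-fold condition 20199 genes were higher, 39.9% of those tested, and 18163 lower, 35.9%. Of these calls 52.7% were higher, and 70.2% were with library totals or with limma on log2(FPKM + 1).

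**Figure D1:**
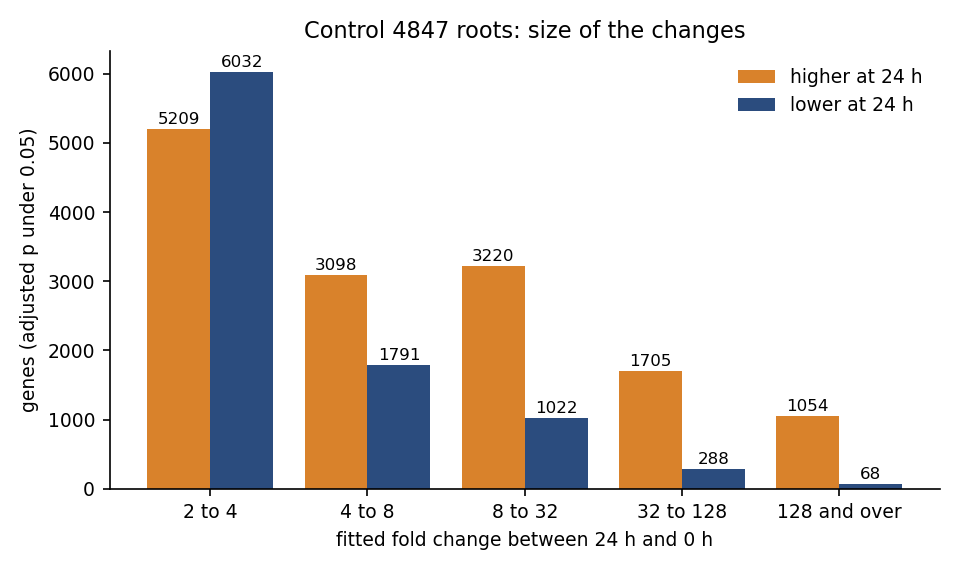
Number of genes called higher (orange) or lower (blue) at 24 h than at 0 h in control 4847 roots, by fitted fold change (edgeR, adjusted p under 0.05). The fallers were more numerous between 2- and 4-fold (6032 against 5209 risers) with TMM scaling, and from 4-fold up the risers were, with 1705 risers and 288 fallers in the last class but one and 1054 and 68 in the last.

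Many of the large rises began from almost nothing. Of the 14286 risers, 1326 had no count in any 0 h library, and of the 9201 fallers, 99 had none at 24 h. A fitted fold change of such genes depends on the fitting. With each of them set at the bound that 3 counts over the group allow, 1960 genes rose and 316 fell by at least 32-fold, and the median log2 fold change was 2.5 over the risers and -1.62 over the fallers, against 2.57 and -1.62 as fitted. The 2759 genes fitted as 32-fold risers had a median of 1.45 CPM at 24 h and 0.00829 CPM at 0 h, and 33 of them reached 100 CPM at 24 h. The 356 genes that fell as far had a median of 0.125 CPM at 24 h and 10.7 CPM at 0 h, and 76 of them had been at 100 CPM or more at 0 h. In share of all counts, the large risers held 3.29%, 3.29% and 3.30% in the 24 h libraries and 0.0264%, 0.0261% and 0.0267% in the 0 h libraries. The large fallers held 0.122%, 0.123% and 0.119% at 24 h and 5.19%, 5.22% and 5.23% at 0 h. Fewer genes thus made up the fall, from a far higher level.

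The change followed the expression level of the gene: weakly expressed genes were more often higher than lower at 24 h, and abundant genes more often lower. Among 11844 genes with a mean under 1 CPM over the 6 libraries, 47.1% rose and 10.7% fell at least 2-fold, with a median log2 fold change of 1.35. Between 1 and 10 CPM, 30.7% of 21457 genes rose and 14.9% fell, with a median of 0.24. From 10 to 100 CPM the fallers were ahead, with 12.3% of 16181 genes higher and 25.6% lower and a median of -0.39. At 100 CPM and over, 10.6% of 1156 genes rose and 51.7% fell, and the median was -1.05. The median of the class from 10 to 100 CPM turned with library totals as the only scaling, to 0.10, and with both FPKM settings, to 0.09 and 0.10, while that at 100 CPM and over kept a negative median in all 8 settings, between -1.05 and -0.56. A weak gene could pass the filter on low counts through the one time at which it was high, so the shares in the lowest class are a description of the genes that passed. With limma on log2(FPKM + 1) the class under 1 CPM had 9.47% risers and a median of 0.23. Both lay below the 28.9% and 0.49 of the class from 1 to 10 CPM, so the order with level did not hold there. The precision of a single gene also follows its level. The median SE of the log2 fold change was 0.687 under 1 CPM and 0.0463 at 100 CPM and over, and 59.2% and 96.6% of genes in these classes passed the test.

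**Figure D2:**
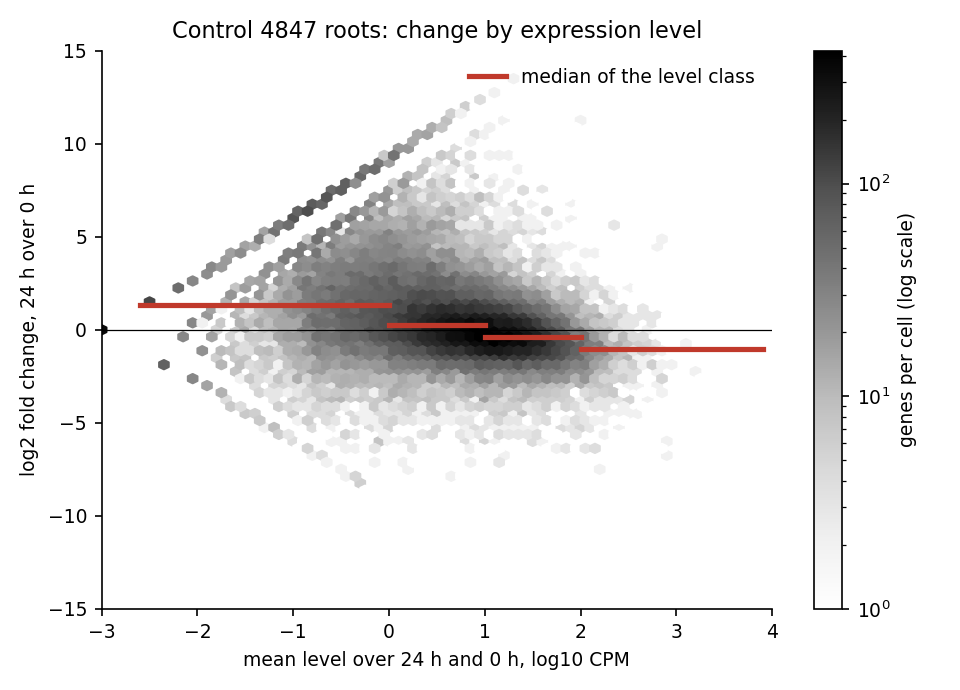
Log2 fold change of each tested gene in control 4847 roots (24 h over 0 h) against its mean level over both times in log10 CPM; darker cells hold more genes and red bars are the medians of the 4 level classes. The medians go down with level, at 1.35, 0.24, -0.39 and -1.05, and the outer diagonal lines are genes with no or very few counts at one time.

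Between the times, 36.0% of the RNA pool changed hands. This is the sum over genes of the absolute difference in share of counts, divided by 2, as the median of a range from 35.9% to 36.1% over the 9 pairs of a 24 h and a 0 h library. Replicate libraries of one group differed by 2.63% to 2.86% at 24 h and 2.37% to 2.61% at 0 h. The loss was more concentrated than the gain. The genes that lost most made up 50% of the loss with 453 genes, while 50% of the gain took 1430 genes. The counts became more even over genes as well: 3712, 3791 and 3753 genes were needed to hold 50% of all counts in the 24 h libraries, against 2268, 2242 and 2238 in the 0 h libraries. The top 100 genes of each library took 10.1% ± 0.0588 of counts at 24 h and 13.1% ± 0.0532 at 0 h (SD, n = 3 each). At an equal depth of 21000000 counts, 45064 ± 92.9 genes were at 10 counts or more at 24 h, against 39011.3 ± 45.4 at 0 h. In none of these 3 measures did the groups overlap. The exact permutation test (two-sided) gave 0.1 for each, which is the smallest p for 3 against 3 libraries. Every measure per library compared between these groups had this value, so Benjamini-Hochberg adjustment leaves it at 0.1. All 3 measures moved the same way in control 9001 and in waterlogged 4847. Genes holding 50% of counts numbered 3680.3 at 24 h and 2239.3 at 0 h in the former, and 1794.3 and 1256.0 in the latter. The top 100 share changed by -3.68 and -2.92 percentage points, and genes at 10 counts or more by 5558.7 and 3005.7.

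Genes chosen in the other variety showed this exchange as well. Risers in control 9001 roots over the same 24 h numbered 13355 and fallers 8518, 26.4% and 16.8% of those tested (at least 2-fold). In control 4847 roots the 9001 risers held 24.7%, 24.6% and 24.6% of all counts in the 24 h libraries and 4.05%, 4.06% and 4.09% in the 0 h libraries. The 9001 fallers held 15.7%, 15.7% and 15.6% of counts at 24 h, against 46.6% in each of the 0 h libraries. The groups did not overlap in either share (exact two-sided permutation p = 0.1, the smallest possible). In percentage points the risers gained 20.5 and the fallers lost 30.9 (-30.9), a gap that hangs on the 2-fold limit: with all genes called in 9001 the changes were 30.7 and -34.2. In waterlogged 4847 roots these shares differed far less between the times: the 9001 fallers held 38.0% ± 0.0622 of counts at 24 h and 42.9% ± 0.0658 at 0 h, and the 9001 risers 8.93% ± 0.0685 and 8.65% ± 0.103 (SD, n = 3 each). By FPKM this last small difference turned, to 9.19% and 9.43%.

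**Figure D3:**
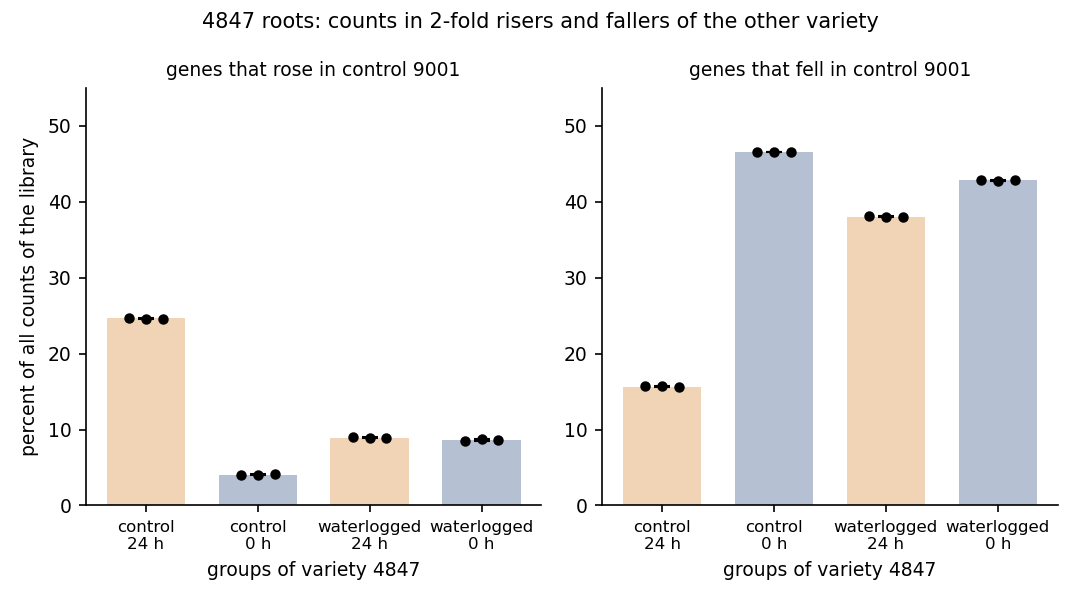
Percent of all counts of a library that fell on the 13355 genes that rose (left) and the 8518 genes that fell (right) at least 2-fold in control 9001 roots, measured in 4847 libraries; points are libraries, bars their means and error bars the SD (n = 3). Control 4847 roots stand at 24.6% against 4.07% on the left and 15.7% against 46.6% on the right, at 24 h against 0 h, and the waterlogged groups differ much less between the times.

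The most abundant genes of dark roots mostly fell. The 100 most abundant genes of control 9001 roots at 0 h were followed in 4847, where 82 fell and 2 rose at least 2-fold, with a median log2 fold change of -2.38. They held 4.29% ± 0.0286 of counts in control 4847 roots at 24 h and 12.8% ± 0.0515 at 0 h (SD, n = 3 each; exact two-sided permutation p = 0.1). The 100 most abundant genes of control 9001 at 24 h were a more mixed group, of which 41 rose and 16 fell in 4847, with a median of 0.63. They held 9.72% ± 0.0510 of counts in control 4847 at 24 h and 6.27% ± 0.0295 at 0 h. Each list was chosen by level at 1 time, which favours falls in the former and rises in the latter. Of the genes at 100 CPM and over by the mean of both times in 4847, 51.7% fell and 10.6% rose. Of the 100 most abundant genes of control 4847 itself, 28 were the same at both times.

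Rises from near silence were frequent, and losses to near silence rare. At 24 h 1610 genes stood at 1 CPM or more that had been under 0.1 CPM at 0 h, whereas 130 genes had gone the other way. Of the 1610, 993 met the same limits in control 9001, which is 61.7%, and of the 130, 69 did, 53.1%. In control 9001 1240 and 127 genes met these limits in all. The first set had a median of 1.86 CPM in control 9001 at 24 h and 0.0496 CPM at 0 h. In waterlogged 4847 its medians were 0.135 CPM at 24 h and 0.0560 CPM at 0 h, and 165 of the 1610 genes reached 1 CPM there at 24 h. Waterlogged 9001 roots were between, with 0.832 CPM at 24 h and 0.0768 CPM at 0 h. The set was chosen by its levels in control 4847, which favours a smaller rise in every other group, so these levels are a description. With no count at all in the 3 libraries at 0 h, 357 genes averaged at least 1 CPM at 24 h and 19 at least 10 CPM. The reverse, no count at 24 h, was found for 4 genes at 1 CPM or more at 0 h and for none at 10 CPM. At these depths a count of 0 in 3 libraries does not show that a gene is silent.

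Since the files name no genes, 4 IDs are followed in full: in each direction the gene with the largest fitted fold change and the gene with the largest difference in CPM, among called genes whose groups did not overlap and whose higher group averaged 10 CPM or more. Ghir_D09G015140, on chromosome D09, had 38.7, 39.8 and 38.4 CPM in the 24 h libraries and no count in any 0 h library. It was at least 1565.6-fold higher at 24 h, taking 3 counts over the 0 h group as the floor (edgeR adjusted p = 3.49e-28). In control 9001 it reached 5.03 ± 0.493 CPM at 24 h, against 4 counts in all at 0 h (SD, n = 3), so that at 24 h its level in 4847 was 7.75 times that in 9001 (exact 95% interval 7.22 to 8.32, counting error only). Waterlogged 4847 roots had no count of it at 24 h and 4 counts at 0 h, and waterlogged 9001 roots 2 and 30 counts. Levels above 1 CPM were thus found in the lit controls, and that of 4847 was the higher. All 4 IDs were chosen by their change in control 4847. That choice favours a larger change there than in other groups, and the p-values of such differences do not allow for it.

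Ghir_A10G023700, on chromosome A10, was the most abundant gene of control 4847 roots at 24 h, with 0.322% of all counts, and stood at rank 259 at 0 h with 0.0362%. Its levels were 2200.0, 2148.5 and 2234.4 CPM at 24 h and 335, 350.0 and 353 CPM at 0 h, without overlap (log2 fold change 2.66, SE 0.0444, edgeR adjusted p = 2.11e-40). Per length it was at 1113.6 ± 18.8 FPKM at 24 h and 125 ± 3.27 FPKM at 0 h (SD, n = 3 each). The rise was slightly larger than in control 9001, where the log2 fold change was 2.32 (difference 0.35, edgeR adjusted p = 2.01e-05). In waterlogged 4847 it went the other way, with 210.0 ± 1.93 CPM at 24 h and 1330.8 ± 52.2 CPM at 0 h.

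Ghir_D09G018070, on chromosome D09, was the most abundant gene of dark control roots and lost that place in the light. It had 165, 159 and 154 CPM at 24 h and 6876.4, 6934.3 and 6815.2 CPM at 0 h. The log2 fold change was -5.43 (SE 0.0366, edgeR adjusted p = 1.67e-54). Its share of counts was 0.0234% at 24 h, rank 362, and 0.719% at 0 h, and its level per length 156 ± 4.46 FPKM at 24 h and 4812 ± 45.3 FPKM at 0 h (SD, n = 3 each). The fall was larger than in control 9001 by 0.43 on the log2 scale (4847 minus 9001, -0.43, edgeR adjusted p = 1.91e-10).

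Ghir_A03G012240, on chromosome A03, nearly vanished. Its 24 h libraries had 1.36, 1.38 and 1.33 CPM, against 977, 1015.7 and 1019.6 CPM in the 0 h libraries (log2 fold change -9.53, SE 0.106, edgeR adjusted p = 4.16e-47). It was at rank 45 in dark control 4847 roots. Control 9001 showed a log2 fold change of -9.67, and the difference between the varieties did not pass the test (0.15, SE 0.180, edgeR adjusted p = 0.734). In waterlogged 4847 the same gene rose, with 571 ± 12.1 CPM at 24 h and 33.4 ± 2.85 CPM at 0 h (SD, n = 3 each). All 4 IDs kept their direction and their call under the other scalings, filters, tools, units and left-out libraries tried; the test against a 2-fold change was not among these for single IDs. Reads of near-identical A and D copies, or of tandem copies, could be split between genes by the authors' counting, so the level of a single ID is uncertain to that extent.

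**Figure D4:**
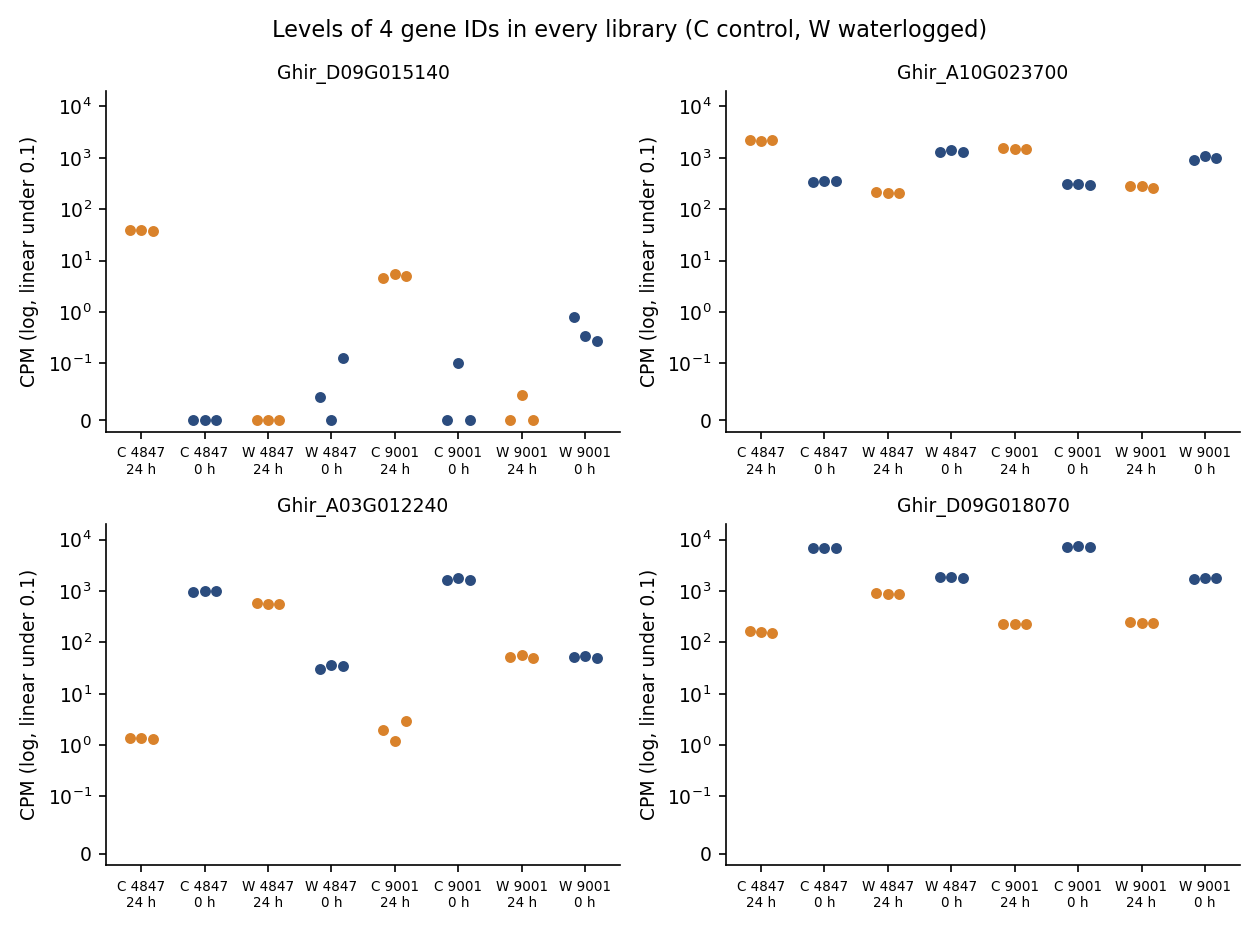
Level of 4 gene IDs in CPM in each library of all 8 groups (log axis, linear under 0.1 CPM; C control, W waterlogged; orange 24 h, blue 0 h; 3 libraries a group). In control 4847 the 24 h and 0 h libraries lie apart for every ID, at means of 38.9 CPM against 0 for Ghir_D09G015140, 2194.3 against 346 CPM for Ghir_A10G023700, 1.36 against 1004.2 CPM for Ghir_A03G012240 and 159 against 6875.3 CPM for Ghir_D09G018070, and waterlogged 4847 goes the other way for Ghir_A10G023700 and Ghir_A03G012240.

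The change in 4847 controls was nearly the change in 9001 controls. No library belongs to both comparisons. Over the tested genes, which are not independent of each other, the log2 fold changes correlated at 0.923, and a line through the origin had a slope of 1.02. The share also called in 9001 went with the size of the change. Of genes that rose 2- to 4-fold in 4847, 68.2% rose at least 2-fold in 9001, and of those that rose 32-fold or more, 97.2% did. For falls these shares were 74.2% and 95.2%. Of the 14286 risers 5 fell at least 2-fold in 9001, and of the 9201 fallers 10 rose. Among the 11998 genes that rose in both, the rise was the larger in 4847 for 67.1%, with medians of 2.85 in 4847 and 2.52 in 9001. Among the 7387 that fell in both, the fall was the larger in 4847 for 57.7%, with medians of -1.75 and -1.68.

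Tested directly, few genes differed by at least 2-fold in their change between 4847 and 9001. The change was at least 2-fold more positive in 4847 for 860 genes, 1.7% of those tested, and more negative for 679, 1.34% (edgeR, adjusted p under 0.05). Without the 2-fold condition 2518 of the 50638 tested genes were more positive and 3330 more negative, so that the order turned. With only the libraries compared in the fit, these numbered 4172 and 4800 of 48519. The test against a 2-fold difference itself called 98 and 137, 0.194% and 0.271%, and limma on log2(FPKM + 1) called 279 and 314, which turns the order. Of the 860, 678 rose at least 2-fold in 4847 and 488 did in 9001. Their median log2 fold changes were 3.41 in 4847 and 1.44 in 9001, and their median levels 4.47 CPM in 4847 and 3.45 CPM in 9001 at 24 h and 0.472 and 1.20 CPM at 0 h. More of them differed between the varieties before the light than after it: 490 were at least 2-fold lower in 4847 at 0 h, and 162 were higher in 4847 at 24 h. For the 679 genes it was the reverse, with 348 lower in 4847 at 24 h and 192 higher in 4847 at 0 h. In both sets the larger count is one of lower levels in 4847. These counts use the libraries that chose the genes and are a description. Between the varieties, 830 of the tested genes stood at least 2-fold higher in 4847 and 1346 lower at 24 h (1.64% and 2.66%), and 743 and 1292 at 0 h (1.47% and 2.55%). Of the genes lower in 4847, 390 were lower at both times, which is 29.0% of those at 24 h and 30.2% of those at 0 h. In the RNA pool the varieties differed by 9.36% at 24 h and 6.71% at 0 h (medians over 9 pairs of libraries), with ranges of 9.24% to 9.47% and 6.60% to 7.13%.

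Waterlogged 4847 roots changed more widely over the same 24 h by share of the RNA pool, with little likeness gene by gene. The pool exchanged was 45.6% in waterlogged 4847 (45.3% to 45.9% over 9 pairs of libraries), against the 36.0% of the controls. By the root mean square log2 difference of group means over the tested genes it was not wider, at 1.81 against 1.86 in the controls. In waterlogged 4847 roots 13936 genes rose, 27.5% of those tested, and 11813 fell, 23.3% (at least 2-fold). The log2 fold changes of control and waterlogged 4847 roots, which share no libraries, correlated at 0.127. Rises in both numbered 5269, 36.9% of the control risers and 37.8% of the waterlogged risers, where 27.5% of all tested genes rose in waterlogged roots. Falls in both numbered 3328, 36.2% of the control fallers and 28.2% of the waterlogged fallers. Among the 14286 risers of control roots 2530 fell past 2-fold in waterlogged roots, and among the 9201 fallers 1948 rose. Both are smaller shares than over all tested genes, of which 23.3% fell and 27.5% rose in waterlogged roots. Among the 2759 genes that rose at least 32-fold in control roots, the median in waterlogged 4847 was 0.0990 CPM at 24 h and 0.0421 CPM at 0 h. The 356 genes that fell as far in control roots held 4.94% ± 0.00403 of counts in waterlogged 4847 at 24 h and 4.42% ± 0.0269 at 0 h, against 0.121% ± 0.00206 and 5.22% ± 0.0192 in the controls (SD, n = 3 each). The sum over these genes was thus near that of dark control roots in both waterlogged groups, while single members such as Ghir_A03G012240 differed many-fold between them. The 2759 and the 356 genes were chosen in the control libraries, so their contrast in the controls follows from the choice. Tested directly, the change differed between control and waterlogged 4847 roots at least 2-fold for 12163 genes in the positive and 12542 in the negative direction, 24% and 24.8% of those tested (edgeR). Which of these was the larger turned with the scaling, to 13371 and 11035 with RLE factors. The spread between replicates was 14.4% in waterlogged 4847 at 24 h, above the 5.82% of the controls, and its libraries were the shallowest, from 21423479 counts. The fit shares 1 spread per gene over all groups.

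**Figure D5:**
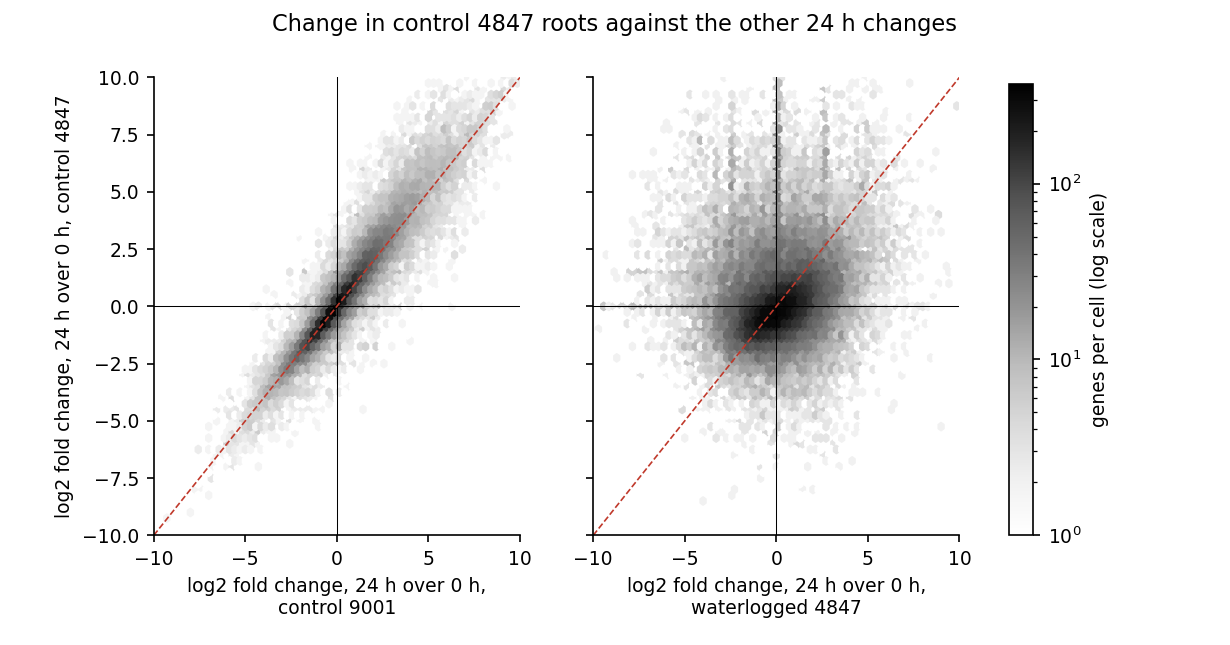
Log2 fold change of each tested gene from 0 h to 24 h in control 4847 roots (vertical axis) against that in control 9001 roots (left) and waterlogged 4847 roots (right); darker cells hold more genes and the dashed line marks equal change. On the left the genes lie along the line (correlation 0.923), and on the right they scatter around zero (correlation 0.127); points beyond 10 on either axis are not drawn.

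The change was spread over the whole genome. Risers past 2-fold made up 28.3% and fallers 18.2% of the tested A genes, and 28.1% and 18.2% of the D genes. Over the 26 chromosomes the share of risers ran between 26.0% on D02 and 30.9% on D03, and that of fallers between 16.2% on D09 and 20.8% on A05. The share of counts on A chromosomes was 49.0% ± 0.00617 at 24 h and 48.9% ± 0.0160 at 0 h (SD, n = 3 each), a difference of 0.0839 percentage points without overlap (exact two-sided permutation p = 0.1, the smallest possible). By FPKM it was 0.249. This is a net shift, in which rises and falls of single genes cancel. It is therefore a different measure from the 36.0% of the pool that was exchanged between genes.

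The longest genes rose less often than shorter ones. Lengths were taken from the ratio of the deposited counts and FPKM, and 4 classes of near equal size were divided at 1257, 1898 and 2771 bases. Of the longest class 21.3% rose and 20.7% fell at least 2-fold, with a median log2 fold change of -0.22, whereas the shortest class had 30.9% risers, 18.5% fallers and a median of 0.27. Between 1257 and 1898 bases 32.3% rose and 16.2% fell, with a median of 0.29, so the classes did not follow length in order. From 1898 to 2771 bases the values were 28.3%, 17.2% and 0.11. Length was not separated from expression level. The longest class had the lowest median under all 8 settings tried, though with library totals as the only scaling it was 0.26, against 0.75 in the shortest. Its larger share of fallers turned with the setting, to 9.77% against 11.9% in the shortest class with library totals and 5.96% against 7.68% with log2(FPKM + 1).

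Neighbours in ID order moved together to a slight degree; the files do not state that this order follows position. For genes 1 ID step apart the log2 fold changes correlated at 0.096 over 42713 pairs, at 2 steps at 0.041, and at 10 steps at -0.003. After a faller the next gene was also a faller in 25.3% of pairs, and 18.5% at 10 steps. After a riser the next was a riser in 32.2%, and 28.0% at 10 steps. There were 103 runs of 5 or more consecutive tested genes that all rose, with 571 genes, and 32 runs that all fell, with 168 genes. Of the genes in them 88.4% and 83.9% were called in the same direction in control 9001, close to the 84.0% of all risers and 80.3% of all fallers. The longest, singled out after its values were seen, was a run of 10 tested genes on chromosome D11 that all fell, by -2.49 to -4.42 on the log2 scale. Their summed level was 2.23, 2.16 and 2.19 CPM in the 24 h libraries and 23.5, 24.5 and 28.3 CPM in the 0 h libraries. In control 9001, 9 of the 10 fell at least 2-fold, with sums of 3.39 ± 0.447 CPM at 24 h and 24.7 ± 2.62 CPM at 0 h (SD, n = 3 each). Waterlogged 4847 roots ran against this, with 187 ± 7.26 CPM at 24 h and 55.2 ± 2.48 CPM at 0 h, and 9 of the 10 genes rose at least 2-fold there.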

How the data were processed

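RNA sequencing libraries of cotton roots were grouped by variety, treatment and time from their titles. The labels' protocols name a Qiagen RNeasy kit for the RNA and a SMARTer kit for the libraries. The authors deposited raw counts for 60633 gene IDs, used unchanged, and an FPKM table of the same IDs, in which the deposited FPKM equal counts per column total and per gene length (1 malformed line was left out). What aligner and counter were used, and whether they used strand, was not given in the sources used here. The submitters' processing notes name the build mm10, a mouse assembly, while all IDs carry A or D cotton chromosome labels, so the build is not known and no coordinates are given. Chromosome labels and ID order were read from the IDs.

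All 24 libraries entered 1 fit in edgeR 4.0.16 (R 4.3.3): filterByExpr, TMM scaling, estimateDisp, glmQLFit and glmQLFTest, with a coefficient per group, 16 residual degrees of freedom and Benjamini-Hochberg adjustment over 50638 genes. The SE of a log2 fold change is its size divided by the square root of F. CPM use the TMM factors; shares of counts use library totals. For single measures per library the test was the exact permutation test in scipy 1.17.1, two-sided. Alternatives used DESeq2 1.42.0 and limma 3.58.1 on log2(FPKM + 1) and log2(FPKM + 0.1). The edgeR fit alone was tested on simulated data, for control 4847 at 24 h against 0 h. Of 100 genes changed 1.5-fold 70 were called, and of 100 changed 3-fold 99, with 10 false calls among 49510 unchanged genes. With so few changed genes, the simulation does not test the scaling where 46.4% of genes differ at least 2-fold.

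The comparison and the lists were chosen with earlier results of these data known. Planned lists of pathway genes and cell type markers needed gene names, so none was applied. The rule for named genes without names was the 4 IDs described in the report.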

Additional observations from a re-analysis of the deposited data

Results flagged for a closer look

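Several results differed between control 4847 roots and another group over the same 24 h. Each difference is control 4847 minus the other group, in log2 fold change, tested within the edgeR fit over all genes. The IDs were chosen by their change in control 4847, which favours larger changes there. The adjusted p-values do not allow for this choice.

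Ghir_D09G015140 rose more in control 4847 than in control 9001, by a fitted 6.43 (SE 1.86, edgeR adjusted p = 0.0164), and than in waterlogged 4847, by a fitted 17.72 (SE 2.68, edgeR adjusted p = 2.58e-07). Both values rest on groups with 0 to 4 counts and are not bounds on the difference. As ratios of counts, the rise was at least 1565.6-fold in control 4847 and 152-fold in control 9001 (exact 95% interval 59.3 to 560.0, counting error only). Ghir_A10G023700 differed by 0.35 from control 9001 (edgeR adjusted p = 2.01e-05) and by 5.33 from waterlogged 4847 (edgeR adjusted p = 5.97e-46), where it fell. Ghir_D09G018070 differed by -0.43 from control 9001 and by -4.37 from waterlogged 4847 (edgeR adjusted p = 1.91e-10 and 2.78e-48). Ghir_A03G012240 differed by -13.62 from waterlogged 4847 (edgeR adjusted p = 2.42e-49), where it rose.

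Some shares of counts differed between 24 h and 0 h in opposite directions in these groups. The libraries of the times did not overlap within a group, and the difference between groups was not tested. The share on A chromosomes was higher at 24 h in control 4847, by 0.0839 percentage points, and lower in control 9001, by -0.429, and in waterlogged 4847, by -1.99. Without the 100 most abundant genes of control 4847 these differences were 0.166, -0.0419 and -1.39, so most of that in control 9001 rested on those genes. The 100 most abundant genes of dark control 9001 roots lost share in control 4847, by -8.53 percentage points, and gained 1.5 in waterlogged 4847.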

How the results depend on the processing

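Between 24 h and 0 h in control 4847, the 4 named IDs kept direction and call, and the 5 measures per library their direction, under every alternative run for them (the 2-fold threshold test was run for counts of genes alone). Left-out replicates moved no count by over 1.5 times. Over the 6 libraries of control 4847, genes higher ranged from 19413 to 19517 and lower from 17466 to 17650, and at 2-fold from 14083 to 14175 and 9090 to 9240. Same-numbered libraries at 24 h and 0 h did not deviate together (correlations -0.023, -0.016 and 0.02), and with the replicate block 14201 genes rose and 9170 fell at least 2-fold. Counts of lower genes depended on scaling and unit. Genes lower at adjusted p under 0.05 numbered 11676 with library totals as the only scaling, 11719 with limma on log2(FPKM + 1), 11336 with log2(FPKM + 0.1) and 11710 with log2(FPKM + 1) and no filter. At 2-fold the numbers lower were 5214, 3376, 4882 and 3376 in that order. For the difference from control 9001, the threshold test gave 98 more positive and 137 more negative genes. With log2(FPKM + 1) there were 279 and 314, and 278 and 314 with no filter. With 1 library left out the counts were 697 to 768 and 636 to 689. For the difference from waterlogged 4847, log2(FPKM + 1) gave 7538 more negative genes with and without the filter, and 1 library left out gave 11715 to 12209 and 12376 to 12573. A pseudocount shrinks changes of weak genes by construction; library totals shift all log2 changes alike. Low depth limits genes under 1 CPM most.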
